A study of Sus scrofa with 2 samples.

Results

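The AP-1 subunits of the FOS and JUN families, their relative ATF3 and the zinc-finger factors of the EGR family were examined in biceps femoris muscle of cloned piglets. The genes were chosen by name, with earlier results of these data known. Entries were taken by the symbol FOS, FOSB, JUN, JUNB, JUND or EGR1 or by the identifiers of ATF3 and FOSL1. Entries with a best protein match named as a FOS, JUN, ATF3 or early growth response protein were also taken. The genes found were 9 of the 12535 genes with reads, namely ATF3 (listed as LOC100524516), FOS, FOSL1 (listed as LOC100525205), JUN (listed as C-JUN), JUNB, EGR1, a neighbouring entry whose protein matched EGR1 (called EGR1-like here), EGR2 and EGR3. The relatives FOSB, FOSL2, JUND and EGR4 were matched to no entry and are not reported here.

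These genes encode the best known immediate-early transcription factors, which many cells switch on from a low level, without new protein synthesis, when a growth factor, stretch, injury or another stress activates MAP kinases. Proteins of the FOS and JUN families pair through a leucine zipper to form AP-1, JUN proteins can also pair among themselves, and ATF3 is a stress-induced zipper protein that pairs with JUN proteins and often represses its targets. EGR proteins bind GC-rich promoter elements. In skeletal muscle these factors are known to be induced by exercise, damage and handling of the tissue.

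The 2 libraries were each made from pooled RNA of piglets (Sus scrofa) produced by somatic cell nuclear transfer and delivered by caesarean section, with muscle taken on Day 1 after birth. The abnormal library pooled 3 cloned piglets with developmental failure (an enlarged tongue, inability to stand or walk, and an umbilical defect). The normal library pooled cloned piglets of normal appearance, 4 according to the methods of the study and 3 according to the sample labels. Embryonic fibroblasts of 1 male Large White pig were the donor cells of all 3 abnormal but only 2 normal clones, while ear fibroblasts of another male gave the remaining 2 normal clones, so phenotype and donor cell cannot be told apart in full. With 1 library per group, no difference below has a replicate check. For ATF3, the paper also measured the transcript by Q-PCR. It reports that its Q-PCR results matched the RNA-seq, though the fold changes may differ a little. Whether single piglets or the pools were measured by Q-PCR is not stated.

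The unique reads counted on the listed transcripts summed to 6.38 M in the abnormal library and 6.52 M in the normal library. These totals are below the number of unique reads that the paper states for each group. Abundance is given as RPKM, the reads of a transcript divided by its length in kb and by the library's total in M reads, with an exact 95% Poisson interval. Changes are log2 ratios of RPKM (abnormal over normal) with a 95% Wilson interval of the abnormal share of the reads, and these intervals cover counting error only. A gene was called higher or lower at an FDR (false discovery rate) of at most 0.001 in the two-sided Audic-Claverie test of the reads, adjusted by Benjamini-Hochberg over all 12535 genes, with a log2 ratio of 1 or more, up or down. This test compares these libraries, not the conditions. Most genes leaned towards the abnormal library: of the 7493 genes that had 10 or more reads in each library, 68.7% had a log2 ratio above 0 and the median was 0.36. The 13 mitochondrial transcripts took a 36.0% share of the abnormal library and a 46.1% share of the normal library. Changes are therefore also given relative to the median shift of 0.36, and the part of the mitochondrial reads in any result was not tested.

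The skeletal muscle label was borne out by its defining transcripts. ACTA1, the actin of skeletal muscle, had 42258 RPKM in the abnormal library against 37387 in the normal, and MYOG, a myogenic regulator, had 155.5 and 116.3. Of 6 muscle marker entries 0 rose and 1 fell, a short TTN entry with 304 abnormal and 678 normal reads, while the long TTN entry had 119816 and 128618. Of the markers of other cells, none was called, and each marker matched to an entry had reads in both libraries. Over all genes, 12.0% were called higher and 1.45% lower. With so few entries per cell type, the counts of calls do not set the muscle or other markers apart from all genes. The summed RPKM of 8 macrophage and leukocyte markers was 16.2 in the abnormal library against 23.0 in the normal, that of 4 endothelial markers 44.1 and 41.8, that of 8 fibroblast marker entries 3010 and 3362, and that of 4 red blood cell markers 1822 and 2723. The leukocyte, fibroblast and red blood cell sums were thus lower where ATF3 and FOS were higher, while the endothelial sum was slightly higher. Single markers with 10 or more reads in each library went both ways. Log2 ratios were above 0 for 2 of 5 leukocyte, 2 of 8 fibroblast, 2 of 4 endothelial and 1 of 3 red blood cell entries. The part of these cells in the results was not tested.

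ATF3, FOS and FOSL1 rose in the abnormal library and no gene of the set fell. Of the 9 genes, 3 (33.3%) were called higher and 0 lower, beside 12.0% of all genes called higher and 1.45% called lower. All but EGR1-like (8 of 9) had a log2 ratio above 0, and 6 lay above the median shift. The same 6, which include the uncalled EGR1, EGR2 and EGR3, also passed the fold threshold of 1. Only 5 of the 9 had 10 or more reads in each library, and for 6 the interval of the log2 ratio held 0. In bulk RNA, more cells of a type and more RNA per cell cannot be told apart.

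**Figure D1:**
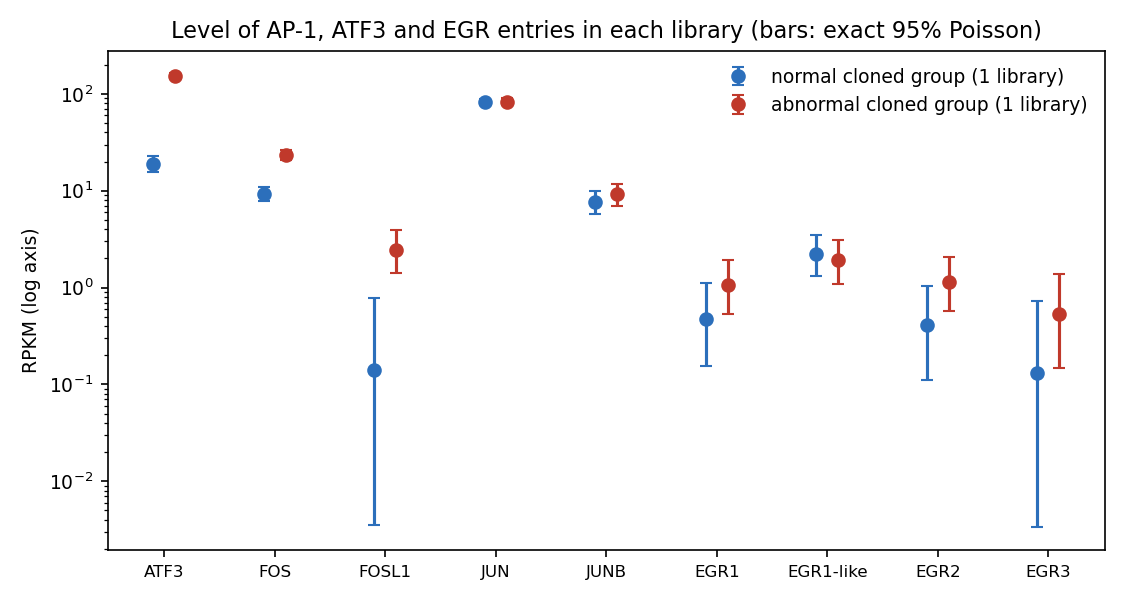
RPKM (log axis) of the 9 genes in the abnormal and the normal library, 1 point per library, with exact 95% Poisson intervals as bars. ATF3 stood at 152.1 RPKM in the abnormal library against 18.8 in the normal, while JUN stood at 83.0 and 82.5 and the EGR genes below 2.3 in both.

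ATF3 was the most abundant of these transcripts in the abnormal library and had the clearest change. The ATF3 entry (chromosome 9, 123225230 to 123237460 of Sscrofa9, minus strand, 899 bp of transcript) had 872 abnormal and 110 normal reads. Its level was 152.1 RPKM (142.2 to 162.5) in the abnormal and 18.8 RPKM (15.4 to 22.6) in the normal library, so that the intervals were far apart. This was 8.10-fold higher (6.64 to 9.87) in the abnormal library, a log2 ratio of 3.02 (2.73 to 3.30, FDR 2.9e-149), and 2.66 (2.37 to 2.94) above the median shift. Of the 7493 genes that had 10 or more reads in each library, 33 had a larger log2 ratio. By level, ATF3 rose from the 83.8th percentile of the transcripts with reads in the normal library to the 96.7th in the abnormal library. The reads covered 79.9% of the transcript in the normal and 96.8% in the abnormal library, so the count did not come from a short stretch. Among 1587 genes of 0.7 to 1.3 times its length the median log2 ratio was 0.15.

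FOS, the founding AP-1 subunit, rose less. The FOS entry (chromosome 7, 106703440 to 106706873, plus strand, 2113 bp) had 317 abnormal and 128 normal reads. Its level was 23.5 RPKM (21.0 to 26.3) in the abnormal and 9.30 RPKM (7.76 to 11.1) in the normal library, 2.53-fold higher (2.06 to 3.11). The log2 ratio was 1.34 (1.04 to 1.63, FDR 2.9e-19), or 0.98 (0.68 to 1.28) above the median shift, and 952 of the 7493 genes had a larger one. Since 0.98 is under the fold threshold, FOS was not called once the libraries were scaled to equal medians. The median log2 ratio of 2851 genes of like length was 0.42.

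FOSL1, also known as FRA-1, a FOS relative without the transactivation domain of FOS, was near the detection limit in the normal library. The FOSL1 entry (chromosome 2, 4807530 to 4812901, plus strand, 1085 bp) had 17 abnormal and 1 normal reads. Its level was 2.46 RPKM (1.43 to 3.93) and 0.141 RPKM (0.0036 to 0.788), and these intervals did not overlap. The ratio was 17.4 with a counting interval of 2.94 to 102.4, a log2 ratio of 4.12 (1.56 to 6.68, FDR 0.00055). With 1 read in the normal library, 17 was the smallest abnormal count that could be called, so FOSL1 sat exactly at the threshold and lost its call under each of the 4 other scalings of the libraries.

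The JUN genes were not called. JUN (chromosome 6, 108925879 to 108927099, plus strand, 1221 bp), the partner with which FOS proteins and ATF3 pair, had 646 abnormal and 656 normal reads. Its level was 83.0 RPKM (76.7 to 89.6) and 82.5 RPKM (76.3 to 89.0), intervals that overlapped almost entirely. The log2 ratio was 0.01 (-0.15 to 0.17, FDR 1.0) and turned to -0.35 (-0.51 to -0.19) relative to the median shift, and it was negative under each of the 4 other scalings. JUN was nevertheless among the more abundant transcripts, at the 94.7th percentile in the abnormal and the 95.2nd in the normal library.

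JUNB, a JUN relative that activates many AP-1 sites less strongly, was not called either. The JUNB entry (chromosome 2, 56058510 to 56059554, plus strand, 1041 bp), which the annotation of Sscrofa9 lists as a pseudogene, had 61 abnormal and 52 normal reads. Its level was 9.19 RPKM (7.03 to 11.8) and 7.67 RPKM (5.73 to 10.1), which overlapped. The log2 ratio was 0.26 (-0.27 to 0.79, FDR 0.621) and turned to -0.10 (-0.63 to 0.43) relative to the median shift. JUN and JUNB together had 707 abnormal and 708 normal reads.

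The EGR genes were scarce, and none was called. EGR1 (ENSSSCG00000014336, chromosome 2, 127526032 to 127528371, plus strand, 1614 bp) had 11 abnormal and 5 normal reads, 1.07 RPKM (0.533 to 1.91) and 0.475 RPKM (0.154 to 1.11). Its log2 ratio was 1.17 (-0.29 to 2.63, FDR 0.377). EGR2 (chromosome 14, 68955914 to 68958755, minus strand, 1500 bp), known from Schwann cells and hindbrain, had 11 and 4 reads, 1.15 RPKM (0.574 to 2.06) and 0.409 RPKM (0.112 to 1.05), with a log2 ratio of 1.49 (-0.08 to 3.06, FDR 0.238). For both genes the intervals of the libraries overlapped, and the interval of the log2 ratio held 0, for EGR2 only narrowly. With so few reads, neither a change nor its absence is shown.

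EGR3 (chromosome 14, 6938712 to 6941157, minus strand, 1164 bp), which is required for muscle spindles, had 4 abnormal and 1 normal reads. Its level was 0.539 RPKM (0.147 to 1.38) and 0.132 RPKM (0.0033 to 0.735), which overlapped, and the log2 ratio was 2.03 (-0.70 to 4.76, FDR 0.589). Beside the normal counts, a call would have needed at least 26 abnormal reads for EGR1, 24 for EGR2 and 17 for EGR3. The 4 EGR entries together had 42 and 29 reads, a log2 ratio of 0.57 (-0.11 to 1.24). This sum leans on EGR1-like, with 16 abnormal and 19 normal reads. EGR1, EGR2 and EGR3 without it had 26 abnormal and 10 normal reads.

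EGR1-like (ENSSSCG00000014333, chromosome 2, 127433066 to 127434397, minus strand, 1317 bp) lay 91635 bp from EGR1 on the opposite strand, and the best protein match of both entries was EGR1 of the pig. It had 16 abnormal and 19 normal reads, 1.90 RPKM (1.09 to 3.09) and 2.21 RPKM (1.33 to 3.46), a log2 ratio of -0.22 (-1.16 to 0.73, FDR 0.839). These reads fell on a short stretch, about 127 bases (9.64% of the transcript) in the abnormal and 140 bases (10.6%) in the normal library. Among genes of like length and like read number (0.7 to 1.3 times), the median coverage was 38.9% over 405 genes in the abnormal and 42.9% over 448 genes in the normal library, and 8 and 5 of them were covered as little. Only unique reads were counted, and the sequences of the entries were not compared. How the reads of EGR1 were divided between the entries is therefore uncertain. Summed over both entries, there were 27 and 24 reads, a log2 ratio of 0.20 (-0.58 to 0.98).

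**Figure D2:**
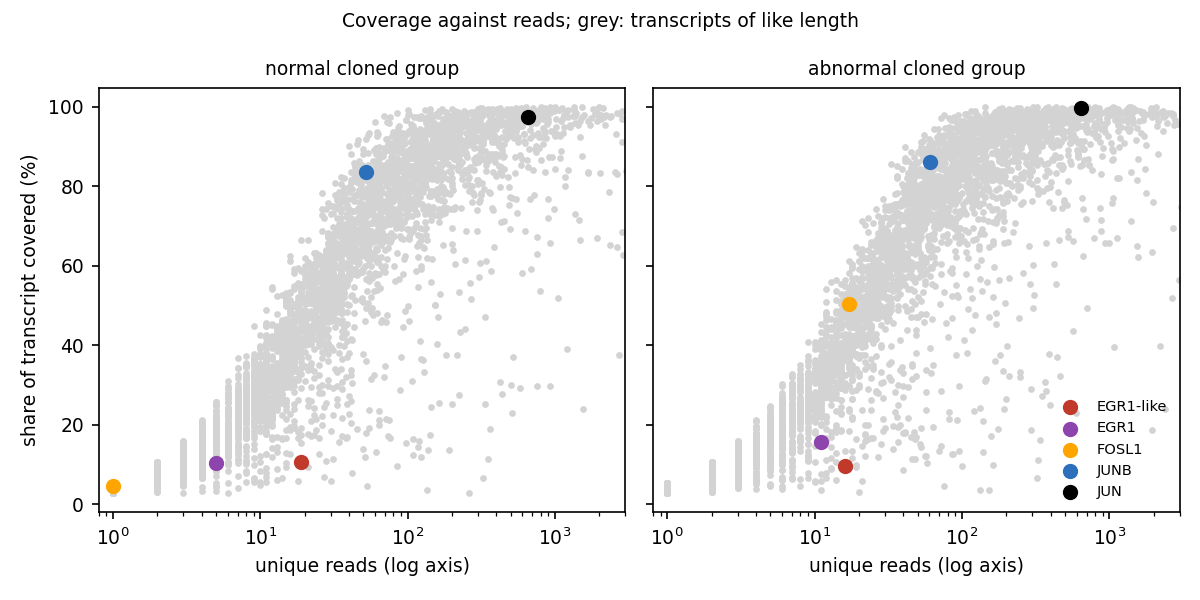
Percent of the transcript covered by reads (vertical axis) against the number of reads (log axis) in each library, for EGR1-like, EGR1, FOSL1, JUNB and JUN and, in grey, for transcripts of 0.7 to 1.3 times the length of EGR1-like. EGR1-like, at 9.64% and 10.6%, sits near the lower edge of the transcripts with as many reads, while JUN lies at 99.8% and 97.4%.

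The order of the levels changed between the libraries at the top. In the normal library, JUN stood first at 82.5 RPKM, followed by ATF3 at 18.8 RPKM, and the intervals of all neighbours down to FOS were apart. FOS at 9.30 and JUNB at 7.67 RPKM had overlapping intervals, EGR1-like followed at 2.21 RPKM, and EGR1, EGR2, FOSL1 and EGR3 could not be separated below it. In the abnormal library, ATF3 stood first at 152.1 RPKM, followed by JUN at 83.0, FOS at 23.5 and JUNB at 9.19 RPKM, each apart from its neighbour. FOSL1, EGR1-like, EGR2, EGR1 and EGR3 followed, each overlapping the next.

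The make-up of the AP-1 and ATF3 transcripts therefore differed. The RPKM of ATF3, FOS, FOSL1, JUN and JUNB summed to 270.2 in the abnormal library against 118.3 in the normal. JUN made up 69.7% of the sum in the normal and 30.7% in the abnormal library, and ATF3 15.9% and 56.3%. FOS made up similar shares, 7.86% and 8.71%, of a sum that was itself larger in the abnormal library. JUNB made up 6.48% and 3.40%, and FOSL1 0.120% and 0.909%. Per JUN transcript, the level of ATF3 was 0.228 in the normal and 1.83 in the abnormal library, and that of FOS 0.113 and 0.284.

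**Figure D3:**
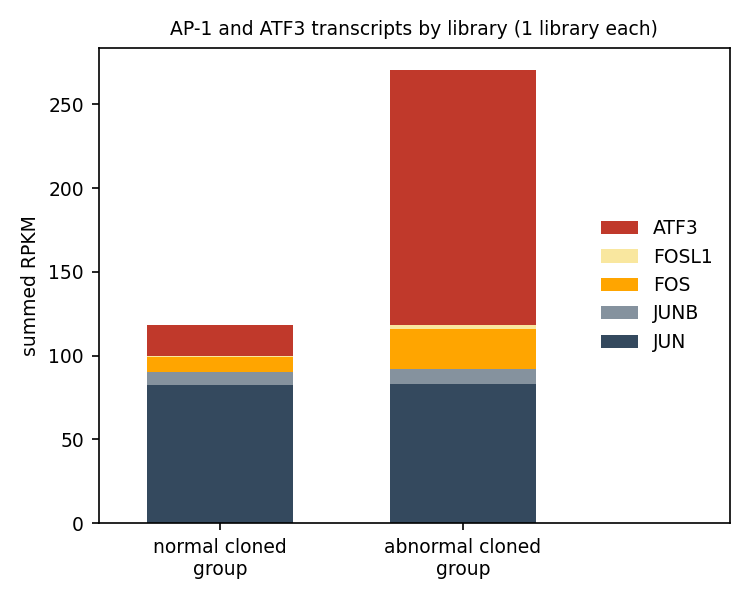
Summed RPKM of the 5 AP-1 and ATF3 transcripts as a stacked bar per library. The bars reach 118.3 RPKM in the normal and 270.2 in the abnormal library, with JUN alike in height (82.5 and 83.0 RPKM) and ATF3 growing from 18.8 to 152.1 RPKM.

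The genes were compared with each other by Fisher's exact test on the reads of each pair in both libraries, which does not depend on how the libraries are scaled. Of the 28 pairs among 8 genes (EGR3 had too few reads), 6 passed an adjusted p of 0.001. The log2 ratio of ATF3 was larger than that of JUN by 3.01 (2.68 to 3.34, adjusted p = 1.0e-91 by Fisher's exact test), than that of JUNB by 2.76 (2.15 to 3.36, adjusted p = 1.9e-16), than that of FOS by 1.68 (1.27 to 2.09, adjusted p = 1.2e-14) and than that of EGR1-like by 3.23 (2.23 to 4.24, adjusted p = 1.0e-08). FOS exceeded JUN by 1.33 (1.0 to 1.67, adjusted p = 1.1e-14 by the same exact test), and FOSL1 exceeded JUN by 4.11 (1.20 to 7.02, adjusted p = 0.00062).

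FOS and JUNB differed by 1.08 (0.47 to 1.69), which missed the threshold (adjusted p = 0.0021 by Fisher's exact test). JUN and JUNB differed by -0.25 (-0.81 to 0.30, adjusted p = 0.483), and ATF3 and FOSL1 by -1.10 (-4.02 to 1.82, adjusted p = 0.821). These intervals leave room for sizeable differences in either direction where FOSL1 takes part. EGR1 and EGR2 differed from none of the other 7 genes at this threshold. A Wald test with counting error only, added after the data were seen, passed 5 pairs and lost that of FOSL1 with JUN. The same Wald test with an assumed biological variation of 0.2 between pools passed 3 pairs, those of ATF3 with JUN, JUNB and EGR1-like.

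**Figure D4:**
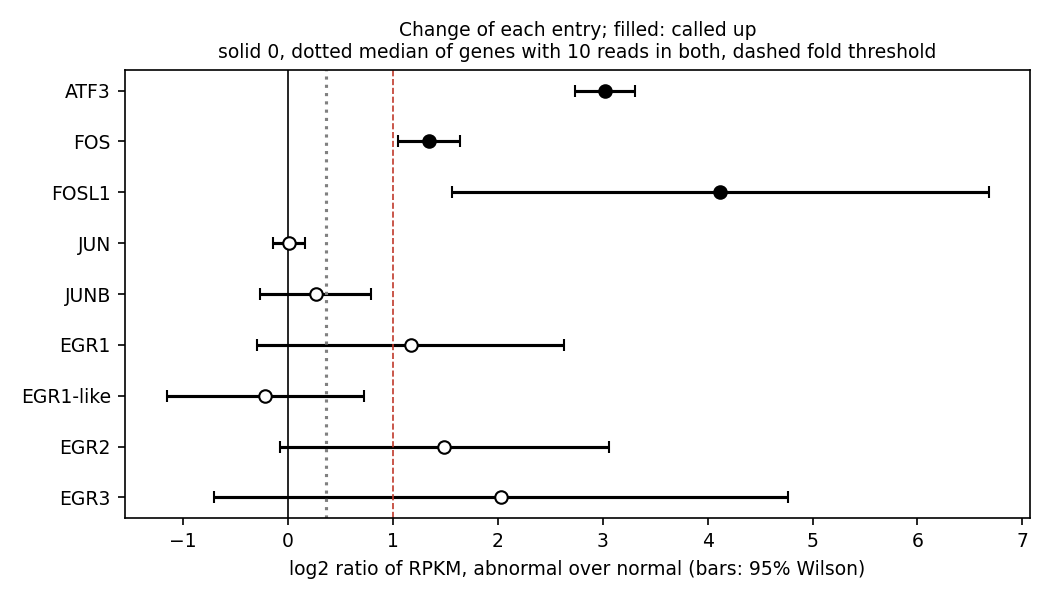
Log2 ratio of RPKM (abnormal over normal) of the 9 genes with 95% Wilson intervals as bars, a solid line at 0, a dotted line at the median shift of 0.36 and a dashed line at the fold threshold of 1. Filled points were called. ATF3, FOS and FOSL1 lie above all these lines. The points of EGR1, EGR2 and EGR3 also do, but their intervals hold 0 and they were not called. JUN and JUNB lie at 0.01 and 0.26, above 0 and below the median shift, so that their sign flips when the libraries are scaled to equal medians.

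The other leucine zipper (bZIP) factors, many of which pair with AP-1 subunits or with ATF3, came from a list of 27 genes of which 21 were matched. Of these, 7 rose, 0 fell and 14 were not called. Among the 16 that had 10 or more reads in each library 6 were called higher (the background was 18.2% called higher and 2.07% lower), and the median log2 ratio was 1.17, beside 0.36 over all such genes. BACH1, a repressor of antioxidant genes, had 60 abnormal and 7 normal reads, a log2 ratio of 3.13 (2.03 to 4.23). MAFF, a small MAF protein, had 69 and 11 reads, 2.68 (1.78 to 3.58), and ATF6, a sensor of unfolded proteins in the endoplasmic reticulum, 137 and 22 reads, 2.67 (2.03 to 3.31).

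The smallest log2 ratios among the called bZIP genes were those of ATF2 and NFE2L1. ATF2, which pairs with JUN and is a substrate of stress-activated kinases, had 95 and 26 reads, a log2 ratio of 1.90 (1.28 to 2.52). NFE2L1, a regulator of proteasome genes, had 715 and 248 reads, 1.56 (1.35 to 1.77). ATF4, the main factor of the integrated stress response and an activator of ATF3, was not called: it stood at 523.7 RPKM in the abnormal library against 343.3 in the normal, a log2 ratio of 0.61 (0.54 to 0.67), or 0.25 above the median shift. NFE2L2, the antioxidant regulator, was also not called, at 73.2 and 43.6 RPKM and a log2 ratio of 0.75 (0.59 to 0.90).

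The kinases and factors that act upstream of these genes were a list of 31 genes with 21 matched, of which 6 rose, 0 fell and 15 were not called. All 6 were among the 15 that had 10 or more reads in each library, where 18.2% of all genes were called higher and 2.07% lower, and the median log2 ratio of the 15 was 0.52. RPS6KA3, the kinase RSK2, had 695 abnormal and 152 normal reads, a log2 ratio of 2.22 (1.97 to 2.48). MAPK14, the stress kinase p38 alpha, had 128 and 40 reads, 1.71 (1.20 to 2.22), and MAPK9, the JUN kinase JNK2, 64 and 24 reads, 1.45 (0.78 to 2.12). RPS6KA2, another RSK kinase, was among the smaller called changes, with 144 and 60 reads and a log2 ratio of 1.29 (0.86 to 1.73).

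The MAP kinase kinases MAP2K1 and MAP2K2 were not called. MAP2K2 had 535 abnormal and 625 normal reads, a log2 ratio of -0.19 (-0.36 to -0.03). MAP2K1 had 283 and 286 reads, a log2 ratio of 0.02 (-0.22 to 0.25), which turned to -0.34 relative to the median shift. These are levels of mRNA and do not measure the activity of a kinase. SRF, the factor that binds the serum response element of FOS and EGR1 and named here for that role after its values were seen, had 5 and 4 reads.

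The feedback inhibitors, which are induced with the immediate-early genes and shut them off, were a list of 20 genes with 15 matched in 16 entries. Of these entries, 4 rose, 0 fell and 12 were not called. All 4 were among the 9 that had 10 or more reads in each library, where 18.2% of all genes were called higher and 2.07% lower, and these 9 had a median log2 ratio of 0.94 (range 0.45 to 1.41). ZFP36, which destabilises short-lived mRNAs, had 555 abnormal and 213 normal reads, a log2 ratio of 1.41 (1.18 to 1.64). ZFP36L2, its relative, had 127 and 50 reads, 1.38 (0.91 to 1.85). DUSP1, a phosphatase of p38 and JNK, had 970 and 456 reads, 1.12 (0.96 to 1.28), and SPRY2, an inhibitor of receptor kinase signalling, 106 and 54 reads, 1.0 (0.53 to 1.47). ZFP36L1 at 0.82 (0.46 to 1.17) and DUSP10 at 0.65 (0.34 to 0.97) were not called. These changes lay close to the fold threshold, and 2 of the 4 calls were left at equal medians.

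Other immediate-early genes were a list of 29 with 19 matched in 20 entries, of which 6 rose, 0 fell and 14 were not called. All 6 were among the 14 entries that had 10 or more reads in each library, where 18.2% of all genes were called higher and 2.07% lower, and the median log2 ratio of the 14 was 0.81. CSRNP1, a nuclear protein induced by AXIN1, had 130 abnormal and 12 normal reads, a log2 ratio of 3.47 (2.63 to 4.31), larger in value than that of ATF3 but with an overlapping interval. CYR61, a secreted matrix protein, had 1106 and 262 reads, 2.11 (1.91 to 2.30), and BTG2, an antiproliferative factor, 397 and 101 reads, 2.01 (1.69 to 2.32). KLF4, a zinc-finger factor of differentiation, at 1.15 (0.73 to 1.57) and MYC, a driver of growth, at 1.10 (0.86 to 1.34) were the smallest of the called changes. Relative to the median shift, KLF4 and MYC stood at 0.79 and 0.74, under the fold threshold.

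Other members of the list were not called. MCL1, a survival factor, was not called at 111.7 RPKM in the abnormal library against 63.9 in the normal, a log2 ratio of 0.81 (0.69 to 0.92), nor was GADD45G, a stress sensor, at 0.67 (0.41 to 0.92). Among the 14 entries with enough reads (10 or more in each library), the 3 with log2 ratios below 0, named after their values were seen, were IER2 with 14 and 17 reads, NR4A2 with 12 and 14 and IER5 with 24 and 27. Their intervals all held 0.

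Genes known as targets of AP-1 or EGR1 in other cells were a list of 19 with 11 matched in 12 entries, of which 0 rose, 1 fell and 11 were not called, beside 12.0% of all genes called higher and 1.45% called lower. With so few entries, 0 higher calls do not set this list apart from all genes. The 10 entries that had 10 or more reads in each library had a median log2 ratio of -0.03, with 5 above and 5 below 0, beside 0.36 over all such genes. CCL2, a chemokine that attracts monocytes, fell: it had 12 abnormal and 43 normal reads, a log2 ratio of -1.81 (-2.72 to -0.90). The macrophage and leukocyte markers, also lower in sum, were 16.2 and 23.0 RPKM, and their part in this difference was not tested. TIMP1, an inhibitor of matrix proteases, was not called at 49.9 RPKM in the abnormal library against 78.3 in the normal, a log2 ratio of -0.65 (-0.88 to -0.42), nor was TGFB1, a growth factor, at -0.09 (-0.57 to 0.39).

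**Figure D5:**
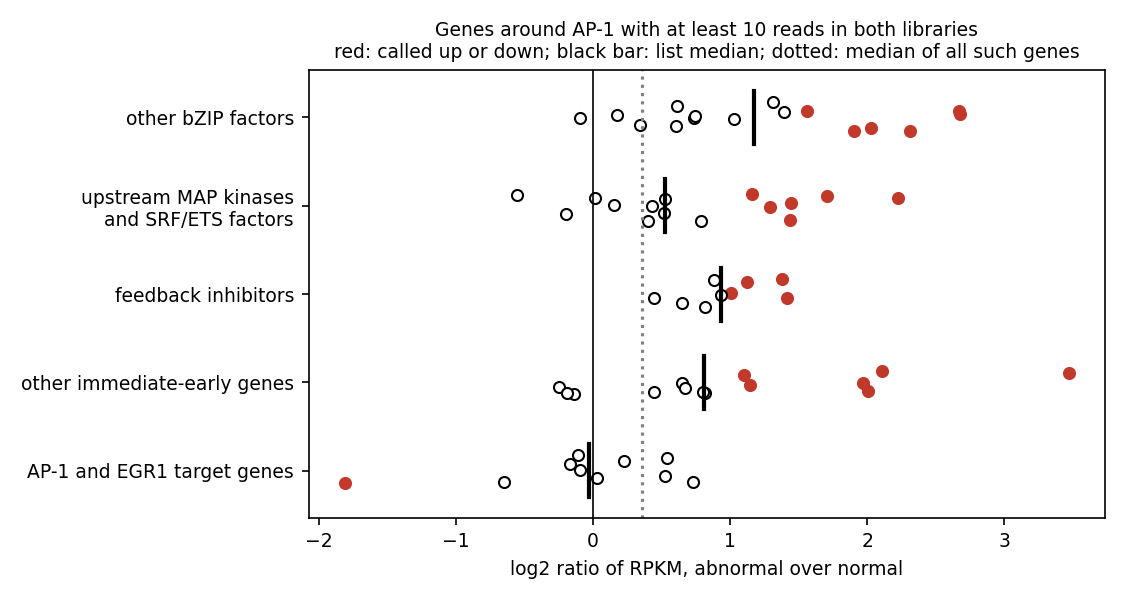
Log2 ratio (abnormal over normal) of each list entry that had 10 or more reads in each library, 1 point per entry (red where called), with the median of each list as a black bar and the median of all 7493 genes, 0.36, as a dotted line. The medians are 1.17 for other bZIP factors, 0.52 for upstream kinases and factors, 0.94 for feedback inhibitors, 0.81 for other immediate-early genes and -0.03 for AP-1 and EGR1 targets. The sign of a point between 0 and the dotted line flips at equal medians.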

How the data were processed

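Total RNA of biceps femoris was pooled by group, oligo(dT) beads were used to select mRNA, and 1 library per pool was sequenced on an Illumina instrument. The authors aligned the filtered reads with SOAPaligner/soap2 (at most 2 mismatches) against the transcripts of Sscrofa9 and deposited, for each transcript, the count of unique reads without normalization, the RPKM, and the percent of the transcript covered (how it was computed is not given in the sources used here). Use of strand is not stated. Transcripts not listed in a table were taken as 0 reads.

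Here, log2 ratios of RPKM (an RPKM of 0 set to 0.001), the Audic-Claverie test and pairwise Fisher's exact tests were computed with Python 3.11.15 and scipy 1.17.1. No model with replicates could be fitted. The smallest abundance the depth could show, 3 reads, was 0.470 RPM (reads per 1 M) for the abnormal and 0.460 RPM for the normal library. Alternatives were other scalings (median ratio, TMM, without mitochondrial transcripts, GAPDH), edgeR 4.0.16 with an assumed variation of 0.2 or 0.4, Fisher's exact test, a Wald test for the pairs, a pseudocount of 1, a minimum of 10 reads and a log2 ratio of at least 2. The tests were tried on simulated data with counting error only, which cannot show how they behave when pools vary.

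The genes and lists were chosen with earlier results of these data known. Entries were matched by symbol, through RefSeq or Ensembl identifiers (9616 of 12535 had a symbol), or by the name of the best protein match. The removal of a few more name prefixes was added after the files were seen. Of each list, all called genes were named where 5 or fewer were called, otherwise the 3 largest and 2 smallest changes, and the 2 uncalled genes with the highest RPKM. The result of 1 gene named by this rule is not reported here. Coordinates are those of Sscrofa9.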

Additional observations from a re-analysis of the deposited data

How the results depend on the processing

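The sign of the JUN log2 ratio, 0.01 as deposited, turned to -0.35 with median-ratio scaling, -0.38 with TMM, -0.24 without the mitochondrial transcripts and -0.21 with GAPDH scaling, and that of JUNB to -0.10 and -0.13 with median-ratio scaling and TMM. These scalings take 0.36, 0.39, 0.25 and 0.21 off every log2 ratio. The 3 called genes (ATF3, FOS, FOSL1) became 1 (ATF3) with median-ratio scaling, TMM or edgeR at an assumed variation of 0.2, and 0 at 0.4. The 7 called bZIP factors became 4 and 0 with edgeR at 0.2 and 0.4. The 6 upstream kinases became 3 with median-ratio scaling, 3 with TMM, and 4 without mitochondrial transcripts or with GAPDH scaling. They became 1 and 0 with edgeR, and 1 at a log2 ratio of at least 2. The 4 feedback inhibitors became 2 with median-ratio scaling, without mitochondrial transcripts and with GAPDH scaling, 1 with TMM, and 0 with edgeR at either variation or at a log2 ratio of at least 2. The 6 other immediate-early genes became 4 with each of the 4 other scalings and with edgeR at 0.2. They became 0 with edgeR at 0.4 and 3 at a log2 ratio of at least 2. Pairs that passed were 6 by Fisher's exact test, 5 by a Wald test with counting error only (added after the data were seen) and 3 by the Wald test with an assumed variation of 0.2. Over all genes, 1510 higher and 182 lower calls (89.2% higher) became 812 and 498 (62.0%) with median-ratio scaling, 751 and 548 (57.8%) with TMM, 987 and 369 (72.8%) without mitochondrial transcripts, 1037 and 337 (75.5%) with GAPDH scaling, 243 and 20 with edgeR at 0.2, 2 and 1 with edgeR at 0.4, and 415 and 42 at a log2 ratio of at least 2. Of 118 values recomputed, 85 were taken as unchanged. For a single gene this meant the same direction and call. For a count it meant within 1.5 times, so a count could lose calls and still be taken as unchanged. An example is the 3 called genes becoming 2 (ATF3 and FOS) with GAPDH scaling. No paired analysis was possible because each group has 1 library, and for the same reason no replicate could be left out. Depth limits FOSL1 and the EGR genes, which had 1 to 19 reads in each library.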
